A study of Homo sapiens with 25 samples.

Results

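The mRNAs of 9 poly(A)-binding proteins and their protein partners, out of 63086 annotated genes, were followed through 25 RNA immunoprecipitation sequencing (RIP-Seq) libraries of IGF2BP1, an RNA-binding protein that controls the stability, transport and translation of its target mRNAs. The members were PABPC1, PABPC4, PABPC1L, PABPN1, PAIP1, PAIP2, PAIP2B, LARP1 and LARP4. They were chosen by gene name. PABPC1 was included as a strong IGF2BP1 ligand, a choice that rests on the same kind of value as is given here, so its levels are a description without a test. The other 8 members were chosen as its relatives and partners.

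The libraries came from HCT116, a human colorectal carcinoma cell line. All mCherry-IGF2BP1 cells carried IGF2BP2 KO, IGF2BP3 KO and Tet-OsTIR1-PURO, and expressed mCherry-IGF2BP1 as WT, S181E, Y396E or RQ (R167Q, R168Q, R174Q and R178Q), the first 2 mutants being phosphomimetic changes in the disordered linkers and RQ removing arginines of an RGG/RG motif. Each line was a lentivirally transduced population sorted through a narrow fluorescence gate, not a set of independent clones. Cells were given PBS (control) or 500 µM sodium arsenite for 2 hours, which causes oxidative stress and stress granules. There were 3 libraries in each of 7 groups and 2 in RQ arsenite. 1 control and 1 arsenite library came from parental HCT116 cells, whose genotype is labelled only HCT116, and these gave the background of the bead pulldown.

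Cytoplasmic poly(A)-binding proteins coat the poly(A) tail of mRNAs, contact the cap-binding complex and so promote translation and protect the tail. PAIP1 stimulates that function, whereas PAIP2 and PAIP2B displace the protein from RNA and from the cap complex. LARP1 and LARP4 are La-related proteins that bind poly(A)-binding protein and mRNA, and LARP1 is known for repressing mRNAs that start with a run of pyrimidines. PABPC1 protein is known to repress its own mRNA through an A-rich stretch in the 5′ leader, and IGF2BP1 is a known partner in that complex.

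The A-rich stretch is shown first, because it is the sequence for which the PABPC1 mRNA is known. In GENCODE 44 (hg38), each leader was searched for the 30-base window with the most A. The PABPC1 leader, 505 bases long, held 22 A in that window, as many as or more than which only 0.255% of 7842 leaders of tested genes contained, against a median of 8. PABPC4, the second cytoplasmic family member, held 23 A in a leader of 839 bases, a count reached by 0.153% of those leaders. The PAIP2 leader reached 13 A and LARP4 stayed at the median of 8. The PABPC1 letters are not printed. The windows of PABPC4 (hg38, minus strand, chr1:39576708-39576737), of PAIP2 (bases 121 to 150 of its leader, across an exon junction on chromosome 5) and of LARP4 (hg38, plus strand, chr12:50400980-50401009) follow, 5′ to 3′, with runs of at least 4 A in capitals.
PABPC4: gaggAAAAAAAgagAAAAAgatAAAAAAAA
PAIP2: gcattgggttAAAAAcgacaaccaacatca
LARP4: gcgggaacgattgggctgagcagaggacga

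The first base and pyrimidines also set PABPC1 and PABPC4 apart from the other members. A leader that opens with C and goes on with C or T without a break (read on the transcript strand) was 12 bases in PABPC1 and 8 bases in PABPC4, and was 0 in the other 7 members. Such a start of at least 5 bases was found in 6.0% of tested leaders. PABPC1 and PABPC4 thus shared both sequence features, and their levels in the immunoprecipitates are compared in the following paragraphs. A count of letters says nothing of binding.

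Depth allowed precise values for most members. The 23 mCherry libraries held 22246381 to 60273548 counts over all genes and 13986350 to 37416271 over protein-coding genes. The parental arsenite library held 15941432 protein-coding counts and the parental control library only 742207. The IGF2BP1 transcript, which checks the labels, was at 37.2 to 122.8 CPM (counts scaled to library size per 1e6 protein-coding counts) in the mCherry libraries and at 0 counts in both parental libraries. By edgeR it was called higher than wild-type in Y396E (1.41-fold in control and 1.33-fold in arsenite) and in RQ (1.67-fold and 2.02-fold), was not called in S181E, and was called lower with arsenite in each genotype (log2 fold change -0.83 to -0.47). These are transcript reads and not amounts of bait protein. The paper sorted the lines so that levels of the tagged protein would be comparable. The part of this transcript difference in the members' values was not tested. All 6 epithelial markers stood above 28.7 CPM in every mCherry library, while none of 6 immune, stromal and endothelial markers passed 13.4 CPM, and PTPRC was at 0. A difference in CPM between immunoprecipitates can come from the share of an mRNA that was bound or from how much of it the cells held, which cannot be told apart here because total RNA was not analysed here.

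PABPC1 was among the most abundant protein-coding transcripts in every mCherry immunoprecipitate. It took 0.740% to 6.57% of protein-coding counts and ranked between the first and place 9 of protein-coding genes. In wild-type control cells the 3 libraries stood at 70826, 73331 and 80509.9 CPM, a mean of 74889 ± 5027 (SD, n = 3). The RQ control libraries stood at 44362, 48716 and 57933 CPM, lower than every wild-type control library. The S181E control libraries stood at 26044, 28719 and 28786 CPM, and the Y396E control libraries at 16723, 18512 and 20384 CPM. In control cells no 2 of the 4 genotypes overlapped, and the order was wild-type, RQ, S181E and Y396E.

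With arsenite the level was lower in each genotype and the order of genotypes was the same. The wild-type arsenite libraries held 27496, 28788 and 29381 CPM of PABPC1. The 2 RQ arsenite libraries held 19647 and 21682 CPM. S181E arsenite libraries held 11351, 11966 and 12849 CPM, and Y396E arsenite libraries held 7070, 7122 and 7569 CPM. Over all 8 groups, neighbours whose ranges overlapped were wild-type arsenite with S181E control, and RQ arsenite with Y396E control. All other neighbouring groups were separated.

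In scaled CPM, both parental libraries held PABPC1 at almost the same level, 2038 in control and 2043 in arsenite. The lowest Y396E arsenite library was thus 3.46-fold above its parental library, and the mean of wild-type control was 36.8-fold above its own. These folds depend on the scaling factors, which were 2.00 in the parental control library and 1.45 in the parental arsenite library. Without scaling factors, PABPC1 took 0.407% and 0.296% of protein-coding counts in the parental control and arsenite libraries. Its mean share was 6.44% in wild-type control and 2.51% in wild-type arsenite. In log2 units, PABPC1 was lower than in wild-type by 1.42 in S181E, 2.00 in Y396E and 0.57 in RQ under control conditions. Under arsenite it was lower by 1.25, 1.95 and 0.46 in the same order. Between arsenite and control the difference was -1.40 in wild-type, -1.23 in S181E, -1.35 in Y396E and -1.29 in RQ. These values share control groups and are given side by side as a description of the gene that the choice of members rested on.

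**Figure D1:**
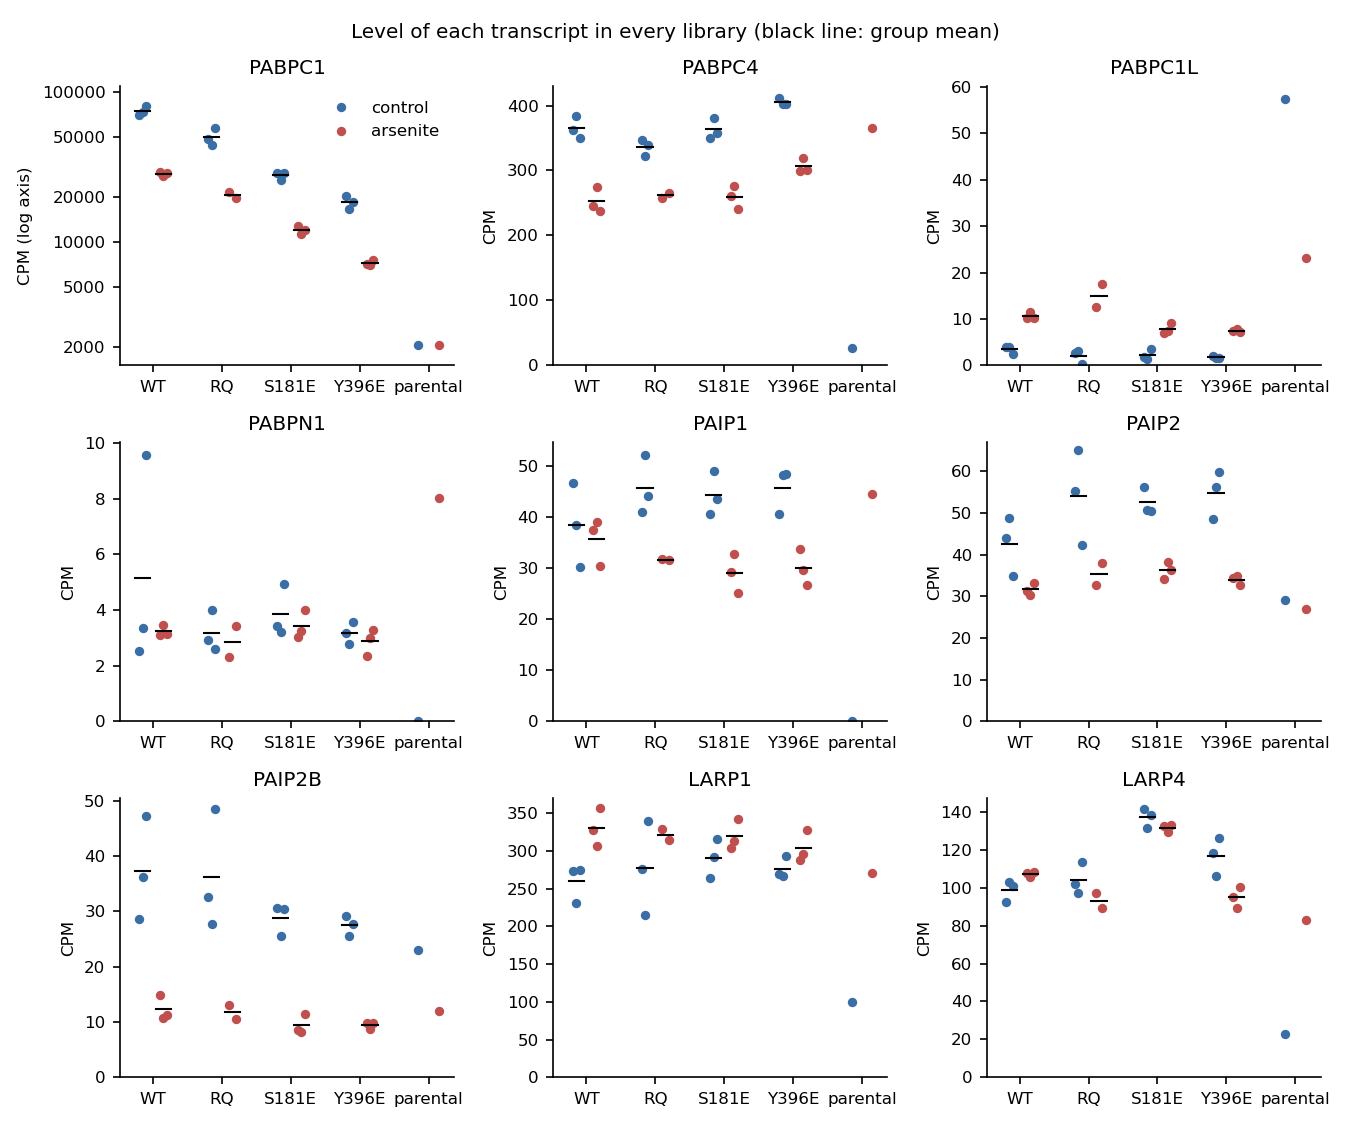
CPM of each member in every library (points) and group mean (black line), control in blue and arsenite in red, for the 4 mCherry-IGF2BP1 genotypes and the parental line (1 library per treatment); the PABPC1 axis is logarithmic. PABPC1 ran from 74889 CPM in wild-type control to 7254 CPM in Y396E arsenite, whereas the other members stayed below 411 CPM throughout.

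Per length of annotated exon, PABPC1 stood far above its relatives. In wild-type control cells its mean was 15518 CPM per kilobase, followed by PABPC4 at 110.6, LARP1 at 32.9, PAIP2 at 17.6, LARP4 at 14.7, PAIP1 at 12.2 and PAIP2B at 5.93 CPM per kilobase. PABPN1, the nuclear poly(A)-binding protein, and PABPC1L, a family member known from germ cells, were lowest at 1.65 and 1.64 CPM per kilobase. In wild-type arsenite cells the first 3 places were the same, with PABPC1 at 5917, PABPC4 at 76.4 and LARP1 at 41.8 CPM per kilobase.

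Some counts carry limits from the way reads were assigned. PABPC1 has 14 annotated processed copies, which together received 112 counts in the 25 libraries against 14222445 for PABPC1, and reads that matched a copy equally well were not counted. PABPN1 shared 46.3% of its exon bases with the readthrough gene BCL2L2-PABPN1 on the same strand, so reads there were ambiguous and left out, and its low level is uncertain. The shared stretch was 4.08% of PABPC4, with a small nucleolar RNA gene, and 1.18% of PABPC1, with a microRNA gene.

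The level over the parental library separated PABPC1 from every other member under arsenite. With 1 parental library per treatment this comparison has no test. In wild-type arsenite cells PABPC1, described only because it was chosen as a strong ligand, stood at 13.98-fold over the parental library. It ranked at place 119 of the 8734 tested genes by fold. None of the other 8 members reached 4-fold, against 9.18% of tested genes. PABPC1L and PABPN1 are among these 8 but not among the tested genes. LARP4 reached 1.29-fold, LARP1 1.22-fold, PAIP2 1.18-fold and PAIP2B 1.02-fold. PAIP1 stood at 0.801-fold, PABPC4 at 0.691-fold, PABPC1L at 0.457-fold and PABPN1 at 0.405-fold of the parental value. PABPC4 thus stood below its parental level of 365.8 CPM in all 3 wild-type arsenite libraries, at 237.2, 245.9 and 274.8 CPM, and its leader was as rich in A as that of PABPC1.

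Among mutants under arsenite, the PABPC1 fold over the parental library was 10.1 in RQ, 5.90 in S181E and 3.55 in Y396E. For the other 8 members it ranged in the 3 mutants from 0.323-fold for PABPC1L in Y396E to 1.58-fold for LARP4 in S181E.

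**Figure D2:**
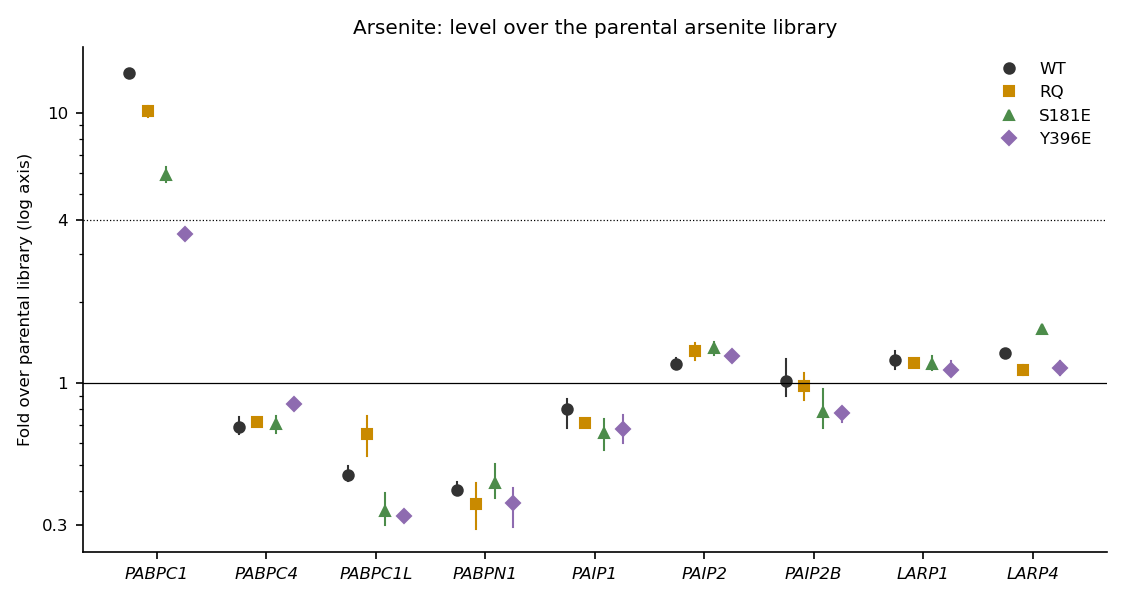
Fold of each member over the single parental arsenite library (logarithmic axis) in the 4 genotypes under arsenite; markers are group means, vertical lines span the lowest to highest library, and the dotted line is 4-fold. PABPC1 runs from 13.98-fold in wild-type to 3.55-fold in Y396E, and the other 8 members lie between 0.323- and 1.58-fold.

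Genes with A-rich leaders were set beside all genes by their level over the parental library. Of the 20 tested genes with at least 22 A in the window, PABPC1 included, 1 was 4-fold or more over the parental arsenite library, and it was PABPC1. Their median was 1.38-fold in wild-type arsenite, against 1.18-fold for all 7842 genes with a measured leader, of which 9.31% were 4-fold or more. In wild-type control, 9 of the 20 were 4-fold or more over the parental control library, against 47.8% of all. The medians there were 3.75-fold and 3.45-fold. The values are a description of genes grouped by their leader. With 20 genes, among them PABPC1 as a chosen strong ligand, the counts are too small to show equality or a difference.

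In control cells the parental comparison rested on few counts. PABPC1, described and not counted, stood at 36.8-fold over the parental control library. Of the other 8 members, PABPC4, LARP4 and PAIP1 stood at least 4-fold over it, against 47.7% of tested genes. PABPC4 was at 13.9-fold and LARP4 at 4.30-fold. PAIP1 had 0 parental counts and was at least 19.02-fold higher when 3 counts are set as the limit. In that library 3572 of 8734 tested genes had 0 counts, 273 had 1 to 19 and 1354 had 20 to 49, so that low counts above 0 were rarer than counts near 39, the most frequent value. PAIP2B and LARP4 were at 34 counts, PABPC4 at 39, PAIP2 at 43, PABPC1L at 85 and LARP1 at 147. PABPC1, with 3019 parental counts, was the member not bound by this limit of few counts, though its fold depends on the scaling factors. Raising each parental count to 3 times that most frequent value, 117, left 2 members at 4-fold or more. Taking the parental arsenite library in its place left 1. Both counts include PABPC1, which was chosen as a strong ligand. The shares of all tested genes under these changes are not given here. The limit of 3 counts covers counting error only and not amplification of few starting molecules.

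**Figure D3:**
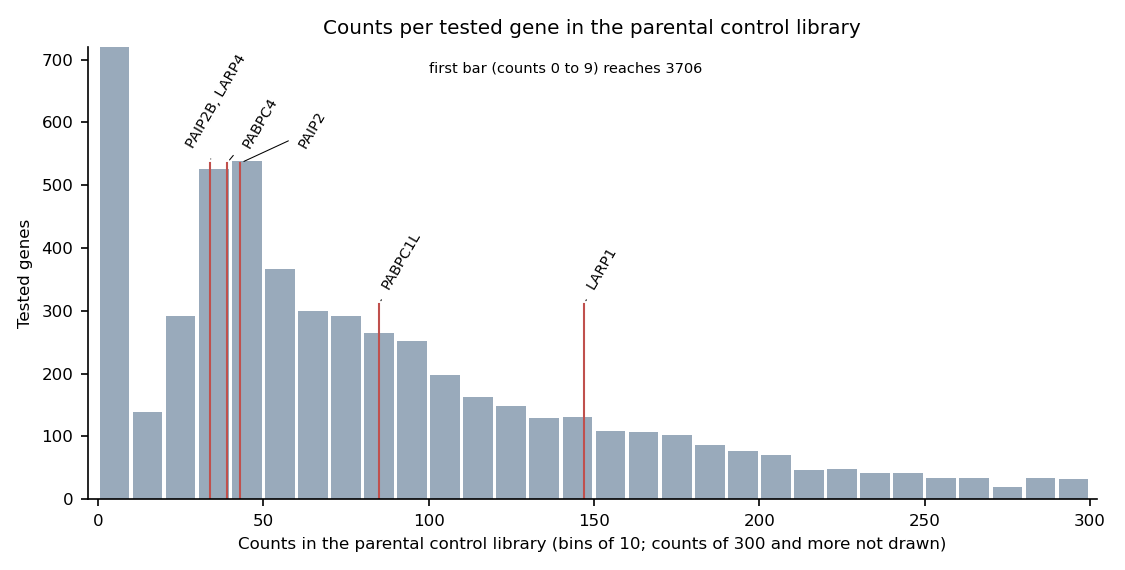
Number of tested genes by their count in the parental control library (bins of 10 counts), with red lines at the members' counts. Apart from the first bin, which reaches 3706 and runs off the axis, the distribution peaks near 40 counts, where PAIP2B, LARP4, PABPC4 and PAIP2 lie.

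Differences of the members between each mutant line and wild-type were tested with edgeR's quasi-likelihood test across 8734 tested genes. A change was called at a Benjamini-Hochberg adjusted p below 0.05 and a difference above 20%. Each genotype was a single sorted population, so the adjusted p covers the spread between its dishes. It does not cover differences between lines, and a mutation and its line cannot be told apart here. Of the 9 members 7 were tested, and 6 of those other than PABPC1. PABPC1L and PABPN1 fell below the filter on low values. Few of the 6 were called in any mutant.

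LARP4, which protects poly(A) tails, was higher with S181E. In S181E control the libraries held 131.2, 138.4 and 141.3 CPM against 92.6, 100.7 and 103.0 CPM in wild-type control, without overlap. The log2 fold change was 0.48 ± 0.09 (SE, adjusted p = 0.000434 by edgeR), and it was the 1 member called of 6, against 12.8% of tested genes higher and 8% lower. In S181E arsenite it stood at 129.2, 132.6 and 133.1 CPM against 105.8, 107.4 and 108.1 CPM, again without overlap. The log2 fold change was 0.29 ± 0.09 (SE, adjusted p = 0.0386 by edgeR), the 1 call of 6, against 2.2% of tested genes higher and 5.34% lower.

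The first LARP4 call was lost when the fit held only the groups compared (adjusted p = 0.0632) and was kept without each library in turn. The second was lost without any 1 of the 6 libraries, the log2 fold change then being 0.28 to 0.31. In S181E arsenite the replicate numbers were taken to pair the samples, from correlations in these same data and not from the labels. With that block LARP4 kept its call (adjusted p = 4.85e-05) and PAIP1 was called lower as well, at -0.29 ± 0.09 (SE, adjusted p = 0.0125), both by edgeR.

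With Y396E, PABPC4 was higher under arsenite. The 3 libraries held 299.4, 300.5 and 320.0 CPM, all above the wild-type libraries given before, and the log2 fold change was 0.31 ± 0.08 (SE, adjusted p = 0.00541 by edgeR). It was the 1 call of 6, against 13.1% of tested genes higher and 19.4% lower, and the call was kept without each library in turn. It was lost with the libraries scaled on genes at or below the parental level, when the log2 fold change was 0.098 (adjusted p = 0.445 by edgeR). The parental level for this scaling was that of the parental arsenite library alone. Under control conditions PABPC4 stood at 402.4, 402.9 and 410.8 CPM in Y396E against 349.2, 362.9 and 384.2 CPM in wild-type, with a log2 fold change of 0.17 ± 0.08 (SE) that did not pass (adjusted p = 0.129 by edgeR).

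PAIP2, an inhibitor of poly(A)-binding protein, was the 1 call of 6 in Y396E control, against 16.2% of tested genes higher and 12.7% lower. Its log2 fold change was 0.38 ± 0.14 (SE, adjusted p = 0.0427 by edgeR), but the Y396E libraries (48.5, 56.3 and 59.8 CPM) overlapped with the wild-type ones (34.98, 43.996 and 48.77 CPM). This call was lost under 6 of 7 other settings and without any 1 of 4 libraries (wild-type replicates 1 and 3, Y396E replicates 2 and 3), when the adjusted p was 0.057 to 0.191 by edgeR. LARP4 was at 0.26 ± 0.09 (SE, adjusted p = 0.0301 by edgeR) in Y396E control, under the 20% limit, and at -0.14 ± 0.09 (SE, adjusted p = 0.206 by edgeR) in Y396E arsenite.

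None of the 6 tested members was called in RQ by edgeR. In RQ control 1 member, PAIP2, had an unadjusted p below 0.05, and in RQ arsenite 0 did, and DESeq2 called 0 in both. The background was 3.51% higher and 2.83% lower in RQ control and 0.286% higher and 0.218% lower in RQ arsenite. RQ arsenite had 2 libraries, which limits what could be called there.

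PAIP1, PAIP2B and LARP1 gave no call against wild-type in the fit used. PAIP1 was between 0.21 and 0.26 in log2 units in the 3 mutants under control conditions and between -0.30 and -0.16 under arsenite. PAIP2B was at -0.35 and -0.42 in S181E and Y396E control and at -0.39 and -0.37 in the same mutants under arsenite, with SE of 0.20 to 0.21. LARP1, the pyrimidine-start repressor, stayed between -0.09 and 0.17 in that fit. Other settings gave some calls, all by edgeR. With total counts LARP1 was called higher in S181E control (0.34, adjusted p = 0.0172) and Y396E control (0.38, adjusted p = 0.00558). PAIP1 was called higher in Y396E control with total counts (0.52, adjusted p = 0.0162). It was called lower in Y396E arsenite with scaling at the parental level (-0.43, adjusted p = 0.0274). The tested members' median difference in control was 0.19 in S181E, 0.21 in Y396E and 0.085 in RQ, beside 0.03 to 0.05 for all tested genes. Under arsenite it was -0.0093, -0.12 and -0.045, beside -0.01 to 0.01 for all.

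More members were called with arsenite than with any mutation. Here about 1 in 3 tested genes was called in each direction, and the members' counts must be read against that. In wild-type, 3 of 6 tested members were lower and 1 higher, against 31.8% and 35.4% of tested genes. In S181E 4 of 6 were lower and 0 higher, against 34.6% and 33.3%. In Y396E 5 were lower and 0 higher, against 33.8% and 31.3%, and in RQ 4 were lower and 0 higher, against 32.3% and 32.4%. The tested members' median log2 fold change was -0.28 in wild-type, -0.54 in S181E, -0.50 in Y396E and -0.45 in RQ, beside medians between -0.02 and 0.03 for all tested genes. With 6 members these counts are small, and the 4 comparisons do not share libraries.

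PAIP2B had the strongest decrease among the 6. In wild-type it fell from 28.7, 36.2 and 47.2 CPM in control to 10.8, 11.4 and 14.9 CPM in arsenite, without overlap. The log2 fold change was -1.60 ± 0.21 (SE, adjusted p = 4.42e-07 by edgeR). In S181E, Y396E and RQ it was -1.64, -1.54 and -1.61, each called and each without overlap. The wild-type arsenite level was close to the parental arsenite level of 12.1 CPM.

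PAIP2 was lower under arsenite as well. It fell from the wild-type control values given before to 30.4, 31.4 and 33.3 CPM, a log2 fold change of -0.44 ± 0.14 (SE, adjusted p = 0.00809 by edgeR), and by 0.56, 0.69 and 0.62 on the log2 scale in S181E, Y396E and RQ, each called. The wild-type call was lost without wild-type control replicate 2 (adjusted p = 0.0517 by edgeR), whereas those of the 3 mutants were kept without each library.

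PABPC4 was lower in all 4 genotypes under arsenite. From wild-type control to wild-type arsenite the log2 fold change was -0.54 ± 0.08 (SE, adjusted p = 3.22e-06 by edgeR), and the groups did not overlap. It was -0.51 in S181E, -0.40 in Y396E and -0.36 in RQ, and all of these were called. The calls of PAIP2B and PABPC4 in the 4 genotypes were kept under each of the 7 other settings and without each library in turn.

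PAIP1, the translation activator, was lower in the 3 mutants but was not called in wild-type. In wild-type it stood at 30.3, 38.6 and 46.7 CPM in control and 30.5, 37.4 and 39.1 CPM in arsenite, which overlap (log2 fold change -0.13 ± 0.15, adjusted p = 0.472 by edgeR). With libraries scaled on genes at or below the parental level it was called lower in wild-type too (-0.50, adjusted p = 0.00508 by edgeR). The fold changes in S181E, Y396E and RQ were -0.63, -0.60 and -0.53 with adjusted p of 0.000906, 0.00143 and 0.00958 by edgeR. The RQ call was lost without RQ arsenite replicate 2, which leaves 1 library there (adjusted p = 0.0546). The difference between genotypes itself was not called for PAIP1: the interaction was -0.50 ± 0.22 (SE, adjusted p = 0.322 by edgeR) for S181E and -0.47 ± 0.22 (SE, adjusted p = 0.244) for Y396E.

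LARP1 was higher under arsenite in wild-type alone among the calls. It stood at 230.3, 273.3 and 274.6 CPM in control and 306.4, 327.0 and 356.9 CPM in arsenite, a log2 fold change of 0.34 ± 0.12 (SE, adjusted p = 0.0183 by edgeR). The call was lost without wild-type control replicate 2 or wild-type arsenite replicate 3, and the sign turned (-0.04) when the libraries were scaled on genes at or below the parental level. LARP1 was at 0.11, 0.14 and 0.21 in S181E, Y396E and RQ, not called, and was called in RQ without RQ control replicate 3 (0.38, adjusted p = 0.0120 by edgeR). LARP4 was lower in Y396E, from 106.0, 118.0 and 126.1 to 89.2, 95.3 and 100.1 CPM (log2 fold change -0.30 ± 0.09, adjusted p = 0.00475 by edgeR). That call was lost without Y396E arsenite replicate 2 or Y396E control replicate 3. In the other 3 genotypes LARP4 was not called, but under the parental-level scaling it was called lower in all 4, at -0.27 in wild-type (adjusted p = 0.0391 by edgeR, where the sign turned), -0.52 in S181E and -0.56 in RQ.

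**Figure D4:**
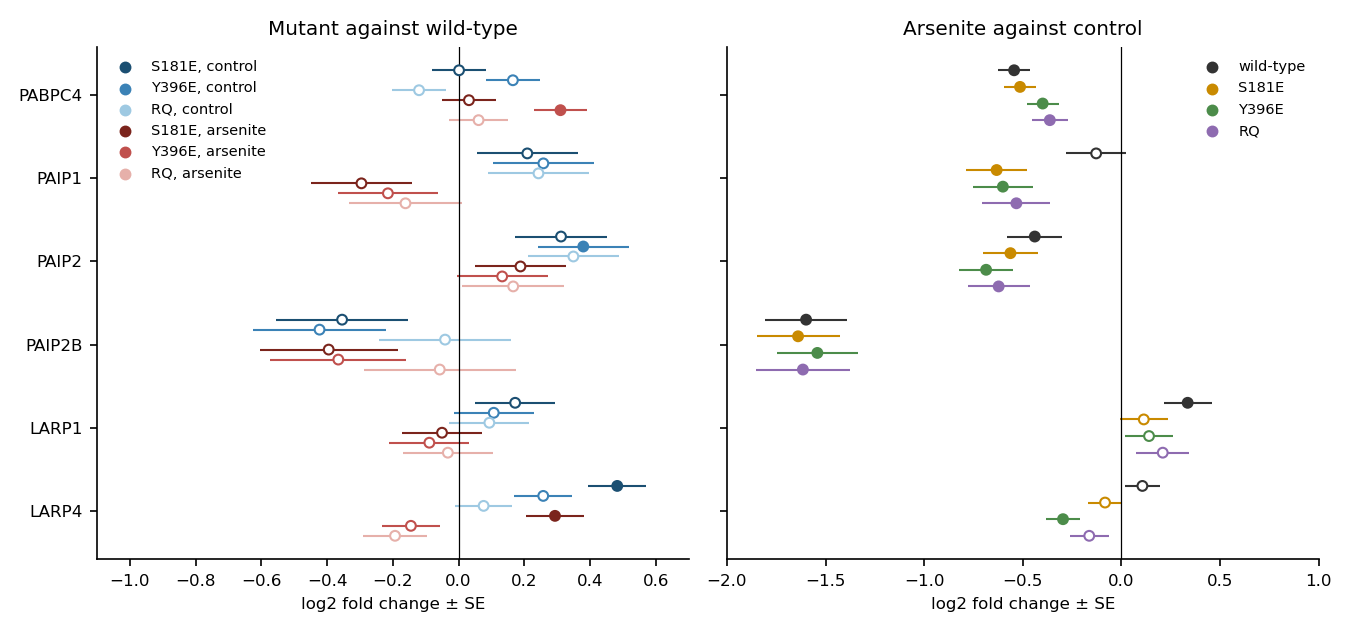
Log2 fold change ± SE from the edgeR fit for the 6 tested members other than PABPC1, mutants against wild-type (left) and arsenite against control (right); filled circles passed an adjusted p of 0.05 and a 20% change, open circles did not. PAIP2B lies between -1.64 and -1.54 in all 4 arsenite comparisons, and only 4 of the 36 mutant values are filled.

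For the interaction of mutant and arsenite, 0 of the 6 were called by edgeR or by DESeq2 in S181E, Y396E or RQ, against 0.389%, 2.85% and 0.0687% of tested genes. PAIP1 for S181E, and PAIP1 and LARP4 for Y396E, had an unadjusted p below 0.05. The nearest to a call was LARP4 with Y396E, at -0.40 ± 0.12 (SE, adjusted p = 0.0776 by edgeR).

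The 2 members below the filter differed from each other. PABPC1L stood at 2.54 to 4.07 CPM in wild-type control and 10.2 to 11.5 CPM in wild-type arsenite, without overlap. With a looser filter on low counts, which tested 13417 genes, it was higher under arsenite by 1.57 ± 0.42 (SE, adjusted p = 0.00296 by edgeR) in wild-type, 1.74 in S181E, 2.10 in Y396E and 2.82 in RQ in log2 units. The parental libraries held more of it, 57.4 CPM in control (85 counts) and 23.2 CPM in arsenite (537 counts). PABPN1 stayed at 39 to 109 counts per mCherry library, or 2.31 to 9.56 CPM, and was not called in any comparison under that filter.

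The genes most like PABPC1 across the 23 mCherry libraries lie on its chromosome. By Pearson r of log2 CPM, given as a description, the 5 nearest of all tested genes were UBXN2B (0.983), CHD7 (0.983), TRAM1 (0.980), TRIB1 (0.977) and SLC45A4 (0.969). All 5 lie on the long arm of chromosome 8, as does PABPC1, and the likeness is over libraries that share genotype and treatment. The arms were split at the widest gap between protein-coding genes.

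Tested genes of that arm were lower as a whole with S181E and Y396E. Their median log2 difference from wild-type over 196 genes was -0.53 in S181E control, -0.57 in Y396E control, -0.56 in S181E arsenite and -0.66 in Y396E arsenite. It was 0.05 in RQ control and -0.01 in RQ arsenite. The 117 short-arm genes stood at 0.19, 0.08, 0.09 and 0.03 in the first 4 comparisons, and the medians of the other 22 chromosomes lay between -0.18 and 0.18. Of the long-arm genes, 56.1% were called lower in S181E control, 64.3% in Y396E control, 59.7% in S181E arsenite and 67.9% in Y396E arsenite.

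PABPC1 stood below that arm's median in each of the 6. Relative to it, the difference was -0.89 in S181E control, -1.43 in Y396E control and -0.62 in RQ control, and -0.69, -1.29 and -0.45 under arsenite. It was the lowest of the 196 in Y396E control, at place 3 from the lowest in Y396E arsenite, and at places 4 and 8 in S181E control and arsenite. The low level on the arm was also present in genes that were not enriched: the 187 long-arm genes under 4-fold over the parental arsenite library had medians of -0.56 in S181E arsenite and -0.62 in Y396E arsenite, while the 793 enriched genes elsewhere had medians of -0.18 and -0.48. Copy number was not measured, and the part of the arm in the PABPC1 difference was not tested. For arsenite against control the arm's median was between -0.24 and -0.02, far from the PABPC1 values of -1.40 to -1.23. None of the other 8 members lies on chromosome 8.

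**Figure D5:**
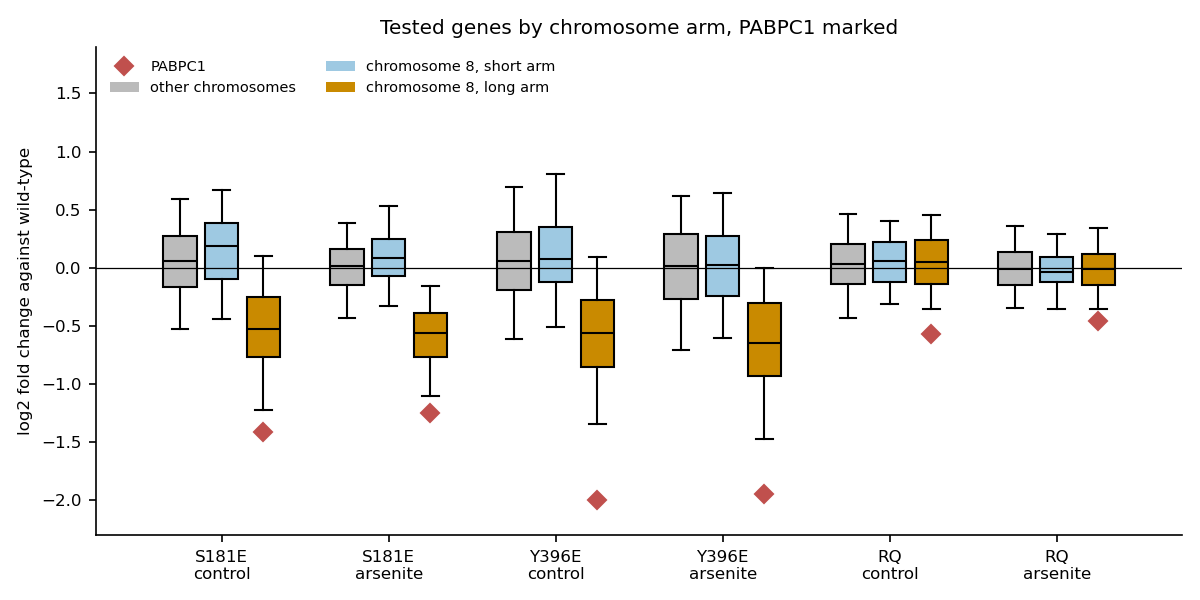
Log2 fold change against wild-type of tested genes on other chromosomes, the short arm and the long arm of chromosome 8 without PABPC1 (boxes are quartiles with the median, whiskers the 5th and 95th percentiles), with PABPC1 as a red diamond. The long-arm median lies at -0.53 to -0.65 with S181E and Y396E and near 0 with RQ, and PABPC1 lies below the whisker in all 6 comparisons.

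Partner genes outside the 9 members were counted from fixed lists of 70 genes, of which 61 were tested. The lists held proteins that bind PABPC1 through PAM2 motifs or share its MLLE domain, the cap complex, deadenylases, a complex that protects coding-region determinants, nuclear polyadenylation factors and 6 further family members, none of which passed the filter. Against wild-type, 7 of the 61 were lower and 16 higher in S181E control (8% and 12.8% of all tested genes), 9 and 14 in Y396E control (12.7% and 16.2%), and 7 and 4 in RQ control (2.83% and 3.51%). With only the groups compared in the fit, the called genes were 4 in place of 23 in S181E control, 15 in place of 23 in Y396E control and 0 in place of 11 in RQ control, and without wild-type control replicate 3 they were 7 in RQ control. Under arsenite 7 were lower and 0 higher in S181E (5.34% and 2.2%), 15 and 6 in Y396E (19.4% and 13.1%), and 1 and 0 in RQ (0.218% and 0.286%). With the replicate block, which was taken to apply to S181E arsenite, 10 were lower and 4 higher there, and leaving out 1 library gave 4 to 5 calls. Shares of all tested genes called in the fits with the block, only the groups compared or libraries left out are not given here. The single call in RQ arsenite was lost without any 1 of 5 libraries.

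FIP1L1, a subunit of the cleavage and polyadenylation factor, was the lowest list gene in all 3 mutants under control conditions. Its log2 fold changes were -0.75, -1.22 and -0.82 in S181E, Y396E and RQ, from a wild-type mean of 172.6 CPM to 101.8, 73.3 and 97.9 CPM. CNOT11, a CCR4-NOT subunit, was among the highest there at 0.73, 0.78 and 0.47. STRAP, of the coding-determinant complex, was at 0.55 in S181E control, and BTG3 and BTG1, both of a family that promotes deadenylation, were at 0.79 and -0.89 in Y396E control. SYMPK, a scaffold of 3′ processing, was at -0.69 and NUDT21, a cleavage factor subunit, at 0.44 in RQ control. With only the groups compared, the RQ control calls of FIP1L1, SYMPK, NUDT21 and CNOT11 and the S181E control call of STRAP were lost, and those of NUDT21 and CNOT11 in RQ were also lost without wild-type control replicate 3 or RQ control replicate 3 (CNOT11 also without wild-type control replicate 2).

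Under arsenite the list genes called lower included BTG2 (-0.59) in S181E, CNOT4 (-0.87) and BTG2 (-0.82) in Y396E, and CNOT4 (-0.55) in RQ, the call lost without any 1 library. The highest with Y396E were EIF4A2 (0.63), a helicase of the cap complex, and SYMPK (0.53), whose call was lost with scaling at the parental level. CPSF1, a cleavage factor subunit at -0.67 in S181E control, also lies on the long arm of chromosome 8. Its call there was lost with only the groups compared.

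With arsenite, 12 of 16 deadenylation genes were called higher in wild-type and 3 lower, against 35.4% and 31.8% of all tested genes, with a median log2 fold change of 0.68 beside 0.03 for all. The counts were 9 and 2 in S181E (33.3% and 34.6% of all), 8 and 3 in Y396E (31.3% and 33.8%), and 9 and 3 in RQ (32.4% and 32.3%). When libraries were scaled on genes that did not exceed the parental arsenite level, 8 were higher and 4 lower in wild-type (median 0.31). The list gave 5 and 5 in S181E (0.047), 3 and 7 in Y396E (-0.18, where its sign turned) and 5 and 4 in RQ (0.22). The median of all tested genes moved down as well, to -0.34, -0.44, -0.45 and -0.39 in the same order. Of all 8734 tested genes, 1881 were then higher and 4180 lower in wild-type. The background was 1626 and 4545 in S181E, 1401 and 4636 in Y396E, and 1704 and 4219 in RQ. Nuclear polyadenylation genes gave 10 of 17 higher and 2 lower in wild-type, with a median of 0.49, and 7 and 4 with a median of 0.11 under that scaling. PAN2, the catalytic subunit of a poly(A) nuclease, was the highest list gene in each genotype, at 2.20, 2.19, 2.31 and 2.66 in wild-type, S181E, Y396E and RQ. HNRNPD in wild-type (1.70), CNOT10 in S181E (1.88) and CPSF1 in Y396E and RQ (1.69 and 1.74) came next. EIF4E, the cap-binding protein, was the lowest in each, at -1.27, -1.59, -1.46 and -1.57, and CNOT6, a deadenylase, followed at -1.23, -1.31, -1.13 and -1.39.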

How the data were processed

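RIP-Seq was performed with beads that bind mCherry, followed by rRNA depletion and stranded single-read libraries. The authors deposited 1 table of gene counts per library, made with STAR 2.7.11b (2 mismatches, hg38, GENCODE 46) and featureCounts (Subread 2.0.6). Per the file headers, counts were reverse-stranded over exons, and reads with several matches or genes were left out. Gene names came from GENCODE 44 (62541 of 63086 identifiers matched).

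From these counts, protein-coding genes with over 10 CPM (TMM scaling) in at least 11.5 of 23 mCherry libraries were fitted in 1 model of 8 groups (edgeR 4.0.16, R 4.3.3), with Benjamini-Hochberg adjustment over 8734 genes. Printed CPM used TMM factors over all 25 libraries. The call threshold (adjusted p below 0.05, change over 20%) followed the study's methods. Replicates were dishes grown separately. Scripts were tested on simulated data. DESeq2 1.42.0 served as an alternative. Members and lists were chosen with earlier results of these data known.

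The text names the 9 members, IGF2BP1, for each comparison up to 4 called genes of the partner lists (2 at either end of the fold changes), and the 5 genes most like PABPC1. 1 gene that this rule selects is not reported here. Same-numbered replicates deviated together in all 3 pairs (r 0.28 to 0.39) only for S181E against wild-type under arsenite, where the numbers were taken to pair the samples. Alternatives were other scalings, filters, tests, fits and left-out libraries.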

Additional observations from a re-analysis of the deposited data

Results flagged for a closer look

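Among the 70 partner list genes, 5 differed between Y396E and wild-type in their arsenite response (interaction in the edgeR fit, adjusted over all tested genes), and 0 of the 6 tested members passed. The log2 interaction was -0.72 ± 0.17 (SE, adjusted p = 0.0178) for CNOT11, -0.56 ± 0.15 (adjusted p = 0.0347) for CNOT9, -0.51 ± 0.11 (adjusted p = 0.00940) for EIF4G2, -0.51 ± 0.13 (adjusted p = 0.0272) for PARN and 0.65 ± 0.17 (adjusted p = 0.0374) for SYMPK, all by edgeR. EIF4G2, a noncanonical initiation factor, and PARN, a poly(A) ribonuclease, fell outside the naming rule and were named after their values were seen. The calls of CNOT11, CNOT9 and SYMPK were each lost without some single libraries (kept in 9, 6 and 4 of 12). Over the 7 other settings, CNOT11 was kept in all, and CNOT9 and SYMPK were each kept in 4. Scaling at the parental level and the looser filter lost both CNOT9 and SYMPK. How far the EIF4G2 and PARN calls depend on settings or libraries is not given here. The background for this interaction was 2.85% of tested genes, and 8.20% of the 61 tested list genes were called.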

How the results depend on the processing

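The calls of PABPC4 and PAIP2B in arsenite against control held under every setting tried, and PABPC1 kept its sign in all 10 comparisons under every setting. Its difference from wild-type ranged over the planned settings from -1.45 to -1.25 in S181E control, -2.16 to -1.73 in Y396E control and -0.68 to -0.48 in RQ control, and from -1.32 to -1.09, -2.16 to -1.73 and -0.53 to -0.38 under arsenite; its arsenite differences ranged from -1.78 to -1.18. Several settings moved the counts. Total counts moved the median of all tested genes by 0.08 to 0.27 (log2) in the mutant comparisons. Scaling on genes at or below the parental level (3572 genes) moved it by -0.43 to -0.38 in the arsenite comparisons. Lower calls made up 38.4% to 70.8% of mutant calls in the fit used. They made up 11.7% to 24.7% with total counts and 20.8% to 88.7% with scaling at the parental level. With the latter they were 69.0% to 76.8% of arsenite calls in place of 47.3% to 51.9%. Depth limited the parental control library most. The causes of these shifts were not tested.

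Of the 6 tested members, those called in S181E control were 3 with total counts and 0 with only the groups compared (1 with all groups). In Y396E control they were 5 with total counts and 0 with DESeq2 size factors, scaling at the parental level, the looser filter, DESeq2's test, only the groups compared and the replicate block (1 in the fit used), and 0 to 2 with libraries left out. In S181E arsenite they were 0 with scaling at the parental level and with the looser filter, 2 with the replicate block and 0 without any 1 library. In Y396E arsenite they were 2 with scaling at the parental level, only the groups compared, and the block. Without 1 library they were 0 to 1 in RQ control and 2 to 4 for arsenite in wild-type. Total counts gave 1 interaction, LARP4 with Y396E. Of all 8734 tested genes, total counts called 379 lower and 2432 higher in S181E control, and 485 and 3668 in Y396E control. Scaling at the parental level called 527 lower and 88 higher in S181E arsenite, and 2769 and 353 in Y396E arsenite. The background of these counts under the remaining settings is not given here. With the parental library of the other treatment, members at least 4-fold over it were 1 in wild-type control and 4 in wild-type arsenite. With the raised floor they were 2 in control. These counts include PABPC1, and the shares of all tested genes beside them are not given here. The raised floor was an alternative chosen after seeing the data, like the PABPC1 difference from its chromosome arm.

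The signs that turned belonged to values that were not called, except LARP1 under arsenite in wild-type. LARP4 under arsenite in wild-type, at 0.11 and not called, became a call in the other direction. For PABPC4 in S181E control (0.00) they were -0.025 with DESeq2 size factors, -0.0173 at the parental level, -0.035 with DESeq2's test, -0.025 with only the groups compared, -0.026 with the block and -0.031 to 0.035 with libraries left out, and in S181E arsenite -0.043 at the parental level and -0.015 to 0.10 with libraries left out. Scaling at the parental level gave -0.079 for PAIP2 in Y396E arsenite, -0.0545 for LARP1 in Y396E control, -0.045, -0.32, -0.29 and -0.20 for LARP1 under arsenite in wild-type, S181E, Y396E and RQ, and -0.27 for LARP4 under arsenite in wild-type. Total counts gave 0.0086 for PAIP1 in Y396E arsenite, 0.049 and 0.024 for PAIP2B in RQ control and arsenite, 0.11, 0.13 and 0.049 for LARP1 in S181E, Y396E and RQ arsenite, and 0.076 for LARP4 in Y396E arsenite. Left-out libraries gave -0.27 to 0.044 for PAIP1 under arsenite in wild-type, -0.30 to 0.16 and -0.23 to 0.11 for PAIP2B in RQ control and arsenite, -0.074 to 0.25 and -0.084 to 0.024 for LARP1 in RQ control and arsenite, and -0.10 to 0.0062 for LARP1 in S181E arsenite.

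With the replicate number as a block, LARP1 in RQ arsenite was at 0.020, PAIP2B was called in Y396E arsenite (-0.38), LARP4 kept its S181E calls, PAIP2 lost its calls in Y396E control and under arsenite in wild-type, and LARP1 was called under arsenite in RQ (0.37). Apart from S181E arsenite, no pairing was taken in these comparisons, at least 1 pair correlating at 0.1 or less or only 2 pairs being present. Some pairs there still deviated together. For Y396E against wild-type in control, r was 0.26 and 0.29 for replicates 2 and 3, and 0.01 for replicate 1. No other call of a member changed with the block beyond those given with the results.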
